A study of Rattus norvegicus with 4 samples.

Results

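The cytosolic ribosomal protein genes encode the proteins of the large and small subunits of the ribosome that translates messenger RNA in the cytoplasm. They were taken here as the array probes whose gene name, without an ending for predicted or mapped genes, is Rpl, Rps or Rplp with its number, or Rpsa. The kinases of ribosomal protein S6 were left out. This gave 108 probes for 72 gene names, printed as 126 spots, among 41012 probes for 35658 names on the array. Of the 108 probes, 65 are for the large subunit and 43 for the small subunit.

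Olfactory ensheathing cells are the glia around the axons that run from the nose to the brain. The study compared such cells cultured from the olfactory mucosa of male Fischer rats with those cultured from the olfactory bulb, grown by the same method. No genetic change, drug or age is given in the labels, and the cells are primary cultures and no tissue. There were 4 biological replicates, each a mucosa and bulb pair on an Agilent array of its own, mucosa labelled with Cy5 and bulb with Cy3. The dyes were never swapped, so a difference between the tissues and a difference between the dyes cannot be told apart for a single probe. The cDNA was amplified by PCR before labelling.

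A ribosome holds a single copy of nearly every ribosomal protein, and the genes for these proteins are expressed at high levels in growing cells. Their messenger RNAs begin with a stretch of pyrimidines, the terminal oligopyrimidine (TOP) motif, through which the growth-related kinase mTOR adjusts their translation as a group. Several of the genes, among them Rpl13a, Rpl32 and Rps18, are used as references in measurements of messenger RNA. Many processed copies of these genes lie elsewhere in mammalian genomes, and a short probe can match such a copy as well as the gene.

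The probes are 60 bases long, and some genes were measured by probes from both strands. The 4 sequences printed here are shown because the probes of each pair share a stretch of sequence from opposite strands. Capitals mark the stretch that is the reverse complement of the partner. Positions are those of the rn4 build, from the array's own annotation, and no annotation of exons was used here. For some of the genes the array's chromosome is not the one given by RefSeq records of the GRCr8 build. The Rpl15 probes are placed at chr15:9082880-9083180 on the plus strand and chr18:50270405-50270464 on the minus strand, and share 53 bases. RefSeq has Rpl15 on chromosome 15, which is the chromosome of the former probe only. Both Rps25 probes are placed at chr8:47375104-47375163, on opposite strands, and all 60 bases are shared.
Rpl15 A_44_P365421: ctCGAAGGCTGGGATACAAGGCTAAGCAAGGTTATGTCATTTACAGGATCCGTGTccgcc
Rpl15 A_44_P859016: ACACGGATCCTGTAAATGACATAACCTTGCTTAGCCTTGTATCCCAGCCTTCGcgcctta
Rps25 A_42_P468038: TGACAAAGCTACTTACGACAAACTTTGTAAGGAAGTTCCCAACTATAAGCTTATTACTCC
Rps25 A_44_P967625: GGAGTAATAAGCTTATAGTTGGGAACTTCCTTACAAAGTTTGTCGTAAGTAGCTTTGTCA

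Most ribosomal protein probes shared no long stretch with another probe on the array. Only probes were compared, so matches to other transcripts or to gene copies in the genome were not tested. At a minimum of 30 shared bases on the same strand, 92 of 108 shared with no other probe, 6 shared with another probe of the same gene, and 0 shared with a probe of another ribosomal protein gene. A further property was overlap with probes outside the set: 13 shared at least 30 bases with such a probe, of which 9 had a partner that the array describes as ribosomal. The array places 81 of the probes on a genomic stretch of exactly 60 bases and 21 on a stretch of more than 100 bases. The median GC content was 45%, from 26.7% to 55%, beside a median of 43.3% over all tested probes.

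Promoters are shown next because the genes are described as a group and are known for a shared start. RefSeq records of the GRCr8 build gave a promoter window, from 250 bases before to 50 bases after the first base of the gene, for 58 of the 72 names. The names were matched by accession in 63 cases and by symbol in 9. The letters CTTTC, an example of a pyrimidine stretch, were found on the sense strand within 20 bases of the annotated start in 28 of 58 promoters (48.3%), and in 5.04% of 27457 promoters of the whole table. On the antisense strand they were found in 1 of 58 (1.72%) and in 4.93% of all. A match is a description of letters in a window and no measured start. Other motifs were searched on both strands over the whole window of 300 bases. CCGGAAG, which can be bound by GABP, was in 29.3% of the promoters and in 9.22% of all. AAGATGG, part of a YY1 motif, was in 15.5% and in 7.30% of all. GGGCGG, a GC box, was in 55.2% and in 34.9% of all, and TATAAA in 6.90% and in 14.3% of all.

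The windows below are those of the genes with the largest ratios in each direction that had an entry, with Rplp1 as a gene measured by 10 spots. Each runs from 50 bases before to 25 bases after the annotated start, and capitals mark CTTTC within 20 bases of it. In GRCr8 they lie at chr1:78083508-78083582 on the minus strand for Rpl28, chr1:163195752-163195826 on the minus strand for Rps3, chr19:68062464-68062538 on the plus strand for Rpl13, chr1:181860260-181860334 on the minus strand for Rps15a, chr8:71290848-71290922 on the minus strand for Rplp1, and chr10:14258396-14258470 on the plus strand for Rpl3l.
Rpl28: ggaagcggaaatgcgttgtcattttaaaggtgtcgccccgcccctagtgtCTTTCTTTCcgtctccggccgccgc
Rps3: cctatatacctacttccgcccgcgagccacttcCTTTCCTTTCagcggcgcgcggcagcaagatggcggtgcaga
Rpl13: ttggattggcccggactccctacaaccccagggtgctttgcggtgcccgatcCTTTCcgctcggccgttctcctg
Rps15a: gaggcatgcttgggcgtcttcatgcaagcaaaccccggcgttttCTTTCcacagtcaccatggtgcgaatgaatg
Rplp1: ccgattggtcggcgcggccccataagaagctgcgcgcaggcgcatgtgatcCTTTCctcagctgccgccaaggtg
Rpl3l: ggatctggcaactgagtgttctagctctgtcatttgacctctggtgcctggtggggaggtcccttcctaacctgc
Genes with ratios in both directions had the letters in this window, and the Rpl3l window had none.

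Over all probes, 36749 passed the filter on dim spots. A log2 ratio is the log2 of the mucosa signal over the bulb signal, so a positive value means more signal from mucosa cells. Across all tested probes, 1150 were higher and 1255 lower in mucosa cells at an adjusted p under 0.05 (limma, Benjamini-Hochberg adjustment over all tested probes), and with each array only centred on its median, without loess, the split was 1625 higher and 1152 lower. The labelled cell type was checked with its markers. All 9 probes for ensheathing and Schwann glia were well above background in both channels, but 6 of 9 were lower in mucosa cells, 0 were higher, and their median ratio was -1.44. S100b, a glial calcium-binding protein, was at -1.49 ± 0.13 (SD, n = 4). Of 14 fibroblast probes, 8 were higher and 3 lower, with a median of 1.56, and their summed signal was 652203 to 828557 in mucosa channels and 86877 to 172234 in bulb channels. The summed glial signal was 15950 to 24058 in mucosa channels and 24929 to 30285 in bulb channels. These sums are not normalized, so the channels are not on the same scale. The median signal over all 41012 probes was 568 to 841 in mucosa channels and 343 to 383 in bulb channels. In bulk RNA, fewer cells of a type and less RNA per cell cannot be told apart, and the part of these markers in the ribosomal protein ratios was not tested. Of the other marker lists, 3 of 5 smooth muscle and pericyte probes were higher. Lower in mucosa cells were 2 of 7 astrocyte, 3 of 6 neuron, 2 of 7 oligodendrocyte and 1 of 4 endothelial probes and the 1 epithelial probe, Cdh1, while 0 of 6 macrophage probes passed in either direction (limma, 1 at an unadjusted p under 0.05).

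The ribosomal protein probes were among the brightest on every array in both channels. In mucosa cells their median spot signal, before background correction, was 22026, 20740, 14481 and 14593 in replicates 1 to 4. The median over all 41012 probes, with those that failed the filter, was 841, 841, 568 and 598. In bulb cells the ribosomal protein median was 6124, 8178, 9392 and 10705, beside 360, 343, 379 and 383 over all 41012 probes. All 4 arrays thus had the ribosomal protein median far above the median of all probes in each channel. Their median probe stood between the 96.3 and the 97.7 percentile of the channel. In each of the 8 channels, 85 to 91 of the 108 probes lay above the 90 percentile.

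Relative to the median of all 41012 probes, the ribosomal protein median in mucosa channels was 26.2, 24.7, 25.5 and 24.4 times as bright in replicates 1 to 4. In bulb channels the same quotient was 17.0, 23.8, 24.8 and 27.97. The bulb channels therefore differed more between arrays than the mucosa channels, with the lowest quotient in replicate 1 and the highest in replicate 4.

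All 108 probes passed the filter, and 107 were well above background on 4 arrays in both channels. The exception was a dim Rpl28 probe, which was above background on 2 of 4 mucosa channels and on 4 of 4 bulb channels. No ribosomal protein probe was saturated on any array (0 of 108), with a highest signal of 97290. A probe's brightness depends on its sequence as well as on its transcript, so the genes are not ranked by it. On the mean of both channels, 88 probes stood above the 90 percentile, 4 under the 75 percentile and 2 under the 50 percentile. Among those 4 were the dim probes of Rpl28, Rpl15 and Rpl37a, while Rpl28 and Rpl15 each had a brighter probe as well.

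The ribosomal protein genes did not pass the test between mucosa and bulb cells. Of 108 probes, 0 were higher and 0 were lower in mucosa cells at an adjusted p under 0.05 (limma, Benjamini-Hochberg adjustment). Among all tested probes 6.54% passed, 3.13% higher and 3.42% lower. The median ratio of the ribosomal protein probes was 0.016 on the log2 scale, with quartiles of -0.15 and 0.19, and 55 probes had a positive mean and 53 a negative mean. Over all tested probes the median was -0.0039.

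**Figure D1:**
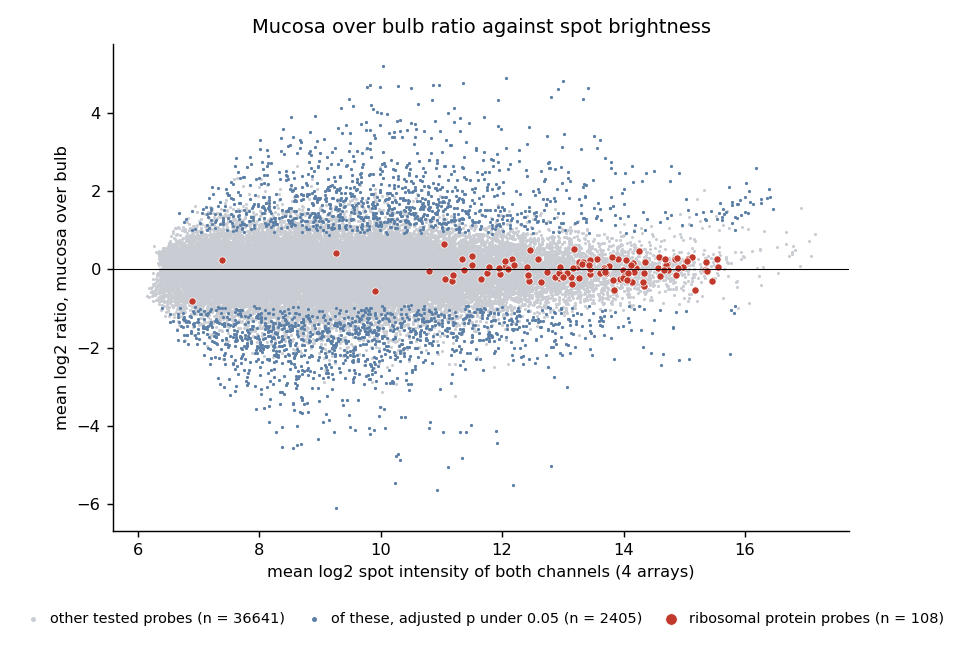
Mean log2 ratio of mucosa over bulb (vertical) against mean log2 spot intensity of both channels (horizontal) over 4 arrays, for other tested probes (grey), those of adjusted p under 0.05 (blue) and the 108 ribosomal protein probes (red). The red points lie toward the bright end, between -0.80 and 0.66, and 0 of them passed the test.

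The spread of the ribosomal protein ratios was narrow. The SD of the mean ratio over the 108 probes was 0.24, beside 0.74 over all tested probes and 0.71 over the 3675 brightest of them. Past 1.5-fold in either direction lay 2 of 108 probes, beside 31.1% of all tested probes, and 0 of 108 lay past 2-fold. With no background subtraction, an offset of 16, median centring or the scanner software's processed signals, 1 lay past 2-fold, the dim Rpl28 probe. The large subunit had a median of 0.015 and an SD over probes of 0.26, and the small subunit a median of 0.017 and an SD of 0.23. Both subunits were thus centred alike, with no test made between them.

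A ratio that missed the threshold is bounded by its interval. The 95% interval of the mean ratio lay within 2-fold of equal signal for 99 of 108 ribosomal protein probes, beside 43.5% of all tested probes. It lay within 1.5-fold for 20 of 108. The standard error was 0.194 to 0.422, with a median of 0.222, and the widest interval reached 1.02 to either side of its mean. For most of these genes a change larger than 2-fold therefore lay outside the interval, while a change of 1.5-fold mostly did not. The smallest adjusted p of any ribosomal protein probe was 0.125 (limma, Benjamini-Hochberg adjustment), and 3 of 108 had an unadjusted p under 0.05, beside 23.8% of all tested probes. The same sign on all 4 arrays was seen for 23 of 108, of which 11 were positive and 12 negative, beside 33.4% of all tested probes.

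The loess normalization centres the ratios at each brightness, so the ratio of a bright probe is read against other bright probes. With each array only centred on its median, without loess, the ribosomal protein median was 0.32 beside 0.065 over all tested probes. Under that setting 18 of the 108 probes lay past 1.5-fold, and 0 passed the test (limma, smallest adjusted p of 0.0604). The means of single probes shifted with it, to -0.20 for Rps3, -0.039 for the Rpl15 probe A_44_P365421, 0.89 for Rpl3l, 0.80 for the Rps15a probe A_43_P13007 and 0.75 for the Rpl13 probe A_44_P138057. The ribosomal protein median was positive with and without loess and -0.0002 by the deposited ratios, and it was -0.11 without replicate 1.

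The ratios of these genes differed between the arrays as a group. The median ribosomal protein ratio was 0.34 in replicate 1, 0.050 in replicate 2, -0.097 in replicate 3 and -0.19 in replicate 4. Over all tested probes the medians were -0.0030, 0.015, 0.011 and 0.021, and over the 3675 brightest -0.013, 0.022, -0.049 and -0.056. Replicate 1 was therefore high and replicate 4 low for the ribosomal proteins, while the medians of all probes stayed near 0.

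**Figure D2:**
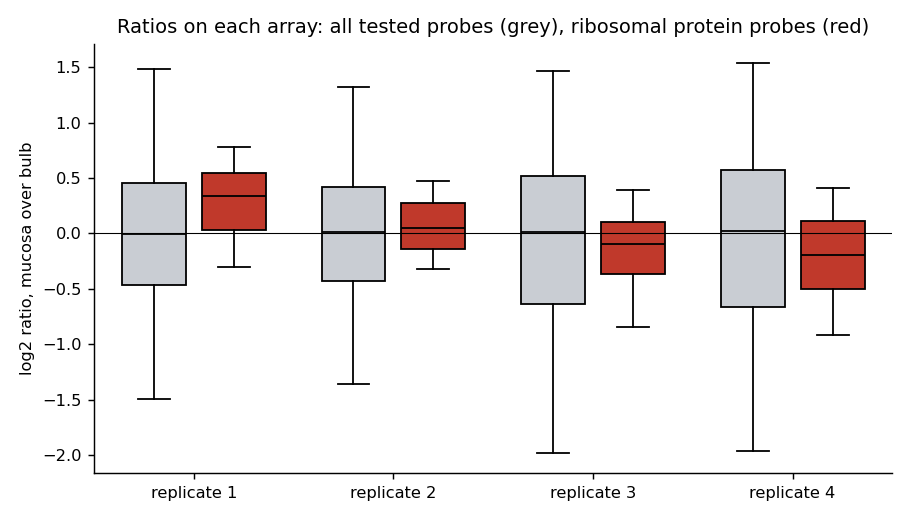
Log2 ratio of mucosa over bulb on each of the 4 arrays for all tested probes (grey) and the 108 ribosomal protein probes (red). Boxes span the quartiles with the median as a line and whiskers the 5 to 95 percentiles. The red medians go from 0.34 in replicate 1 to -0.19 in replicate 4, while the grey medians stay between -0.0030 and 0.021.

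Of the 108 probes, 75 had their highest ratio in replicate 1, and 16, 7 and 10 in replicates 2, 3 and 4. The lowest ratio was in replicate 4 for 48 probes and in replicate 3 for 42, with 6 and 12 in replicates 1 and 2. The ratio was higher in replicate 1 than in replicate 4 for 89 of 108 probes. The members were measured on the same arrays and are no replicates, so no test was made of this pattern. The SD over arrays had a median of 0.33 over the ribosomal protein probes, and 0.23 after the ribosomal protein median of each array was taken away. The same order of arrays was in the deposited ratios, with medians of 0.32, 0.015, -0.090 and -0.17, and without loess, with medians of 0.82, 0.37, 0.22 and 0.014.

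Spots of the same probe gave the error within an array. Rplp1, a protein of the stalk that recruits elongation factors, was printed as 10 spots and had mean ratios of 0.47, -0.065, 0.087 and -0.44 in replicates 1 to 4, with an SD between spots of 0.032 to 0.060. Replicate 1 was highest and replicate 4 lowest, and the distance between arrays was several times the SD between spots.

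The probes of opposite strand gave similar ratios on each array, with the widest difference in replicate 4 of Rps25. The Rpl15 pair, for a large-subunit protein, had ratios of -0.03, -0.48, -0.39 and -0.80 in replicates 1 to 4 for A_44_P365421 and of 0.13, -0.37, -0.26 and -0.76 for A_44_P859016. The Rps25 pair, for a small-subunit protein, had ratios of 0.30, -0.02, -0.06 and -0.55 for A_42_P468038 and of 0.25, -0.21, -0.35 and -0.997 for A_44_P967625. In each of these 4 probes replicate 1 was the highest and replicate 4 the lowest.

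**Figure D3:**
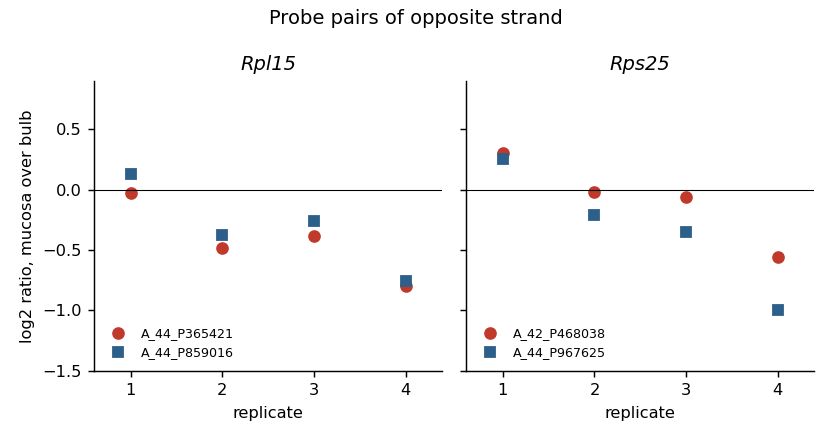
Log2 ratio of mucosa over bulb (vertical) in replicates 1 to 4 (horizontal) for the Rpl15 and Rps25 pairs of probes, which cover a shared stretch from opposite strands, with a probe of the pair as circles and its partner as squares. In Rps25 both probes are highest in replicate 1, at 0.30 and 0.25, and lowest in replicate 4, at -0.55 and -0.997.

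Both strands also gave bright signal. The median spot signals of the Rps25 probes were 11027 and 8136 in mucosa cells and 5702 and 4907 in bulb cells. Those of the Rpl15 pair were 27584 and 25113 in mucosa cells and 17481 and 14915 in bulb cells. Rpl37 and Rps15 also had probes annotated to opposite strands, with no shared stretch, at 0.055 and 0.19 for Rpl37 and at -0.13 and -0.0085 for Rps15. The labels do not say which cDNA strand was labelled, so a gene and a transcript from its other strand were not separated here.

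The largest negative ratio was that of Rpl28, a large-subunit protein. Its probe A_44_P778019, placed at chr1:67769118-67769177 and starting at base 958 of the transcript, had ratios of -0.47, -0.30, -1.16 and -1.28 in replicates 1 to 4, with a mean of -0.80 ± 0.49 (SD, n = 4) and an adjusted p of 0.125 (limma, Benjamini-Hochberg adjustment). All 4 arrays were below 0, with replicates 3 and 4 lowest. This was also the dim probe, with a median signal of 93.2 in mucosa cells and 111 in bulb cells, and its size depended on the treatment of background. Its mean was -1.07 with no background subtraction, -1.08 with median centring, -1.23 with an offset of 16 and -2.54 with the processed signals, and it passed the test under none of these.

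The second Rpl28 probe, A_44_P416862 at chr1:67770594-67770653 and base 107, was bright, with a median signal of 49859 in mucosa cells and 28344 in bulb cells. Its ratios were -0.56, -0.22, -1.02 and -0.30, with a mean of -0.53 ± 0.36 (SD, n = 4) and an adjusted p of 0.227 (limma, Benjamini-Hochberg adjustment). Both Rpl28 probes were thus below 0 on every array, and neither passed the test.

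Rps3, a small-subunit protein at the site where messenger RNA enters the ribosome, was also below 0 on every array. Its ratios were -0.28, -0.35, -1.21 and -0.29, with a mean of -0.53 ± 0.45 (SD, n = 4) and an adjusted p of 0.253 (limma, Benjamini-Hochberg adjustment). Replicate 3 stood apart from the others, which lay within a narrow range.

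The largest positive ratio was that of Rpl3l, a paralog of Rpl3 known from skeletal and heart muscle. Its ratios were 0.02, 0.66, 0.74 and 1.20 in replicates 1 to 4, with a mean of 0.66 ± 0.49 (SD, n = 4), or 1.58-fold higher in mucosa cells, and an adjusted p of 0.187 (limma, Benjamini-Hochberg adjustment). Replicate 1 was near 0 and replicate 4 highest, which is the opposite order to that of most ribosomal protein probes. Rpl3 itself, which lies near the site where peptide bonds are made, had ratios of 0.15, 0.16, -0.11 and -1.02 and a mean of -0.20 ± 0.56 (SD, n = 4). The longest stretch shared by the Rpl3 and Rpl3l probes was 7 bases. The probes start at base 346 and base 1245 of their transcripts and so cover different parts. Whether the Rpl3l probe matches the Rpl3 transcript was not tested.

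Rps15a and Rpl13 were above 0 on every array at their higher probes. The Rps15a probe A_43_P13007, for a small-subunit protein, had ratios of 0.68, 0.31, 0.42 and 0.67, with a mean of 0.52 ± 0.19 (SD, n = 4) and an adjusted p of 0.188 (limma, Benjamini-Hochberg adjustment). Its second probe, A_44_P511324, had ratios of 0.38, 0.20, -0.19 and 0.03 and a mean of 0.11 ± 0.25 (SD, n = 4). The former was higher on every array, by 0.30, 0.11, 0.61 and 0.64.

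The Rpl13 probe A_44_P138057, for a large-subunit protein, had ratios of 0.78, 0.29, 0.28 and 0.64, with a mean of 0.49 ± 0.25 (SD, n = 4) and an adjusted p of 0.22 (limma, Benjamini-Hochberg adjustment). The second Rpl13 probe had ratios of 0.55, 0.49, 0.39 and -0.09, with a mean of 0.34 ± 0.29 (SD, n = 4). Replicate 4 was high at the former and lowest at the latter.

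**Figure D4:**
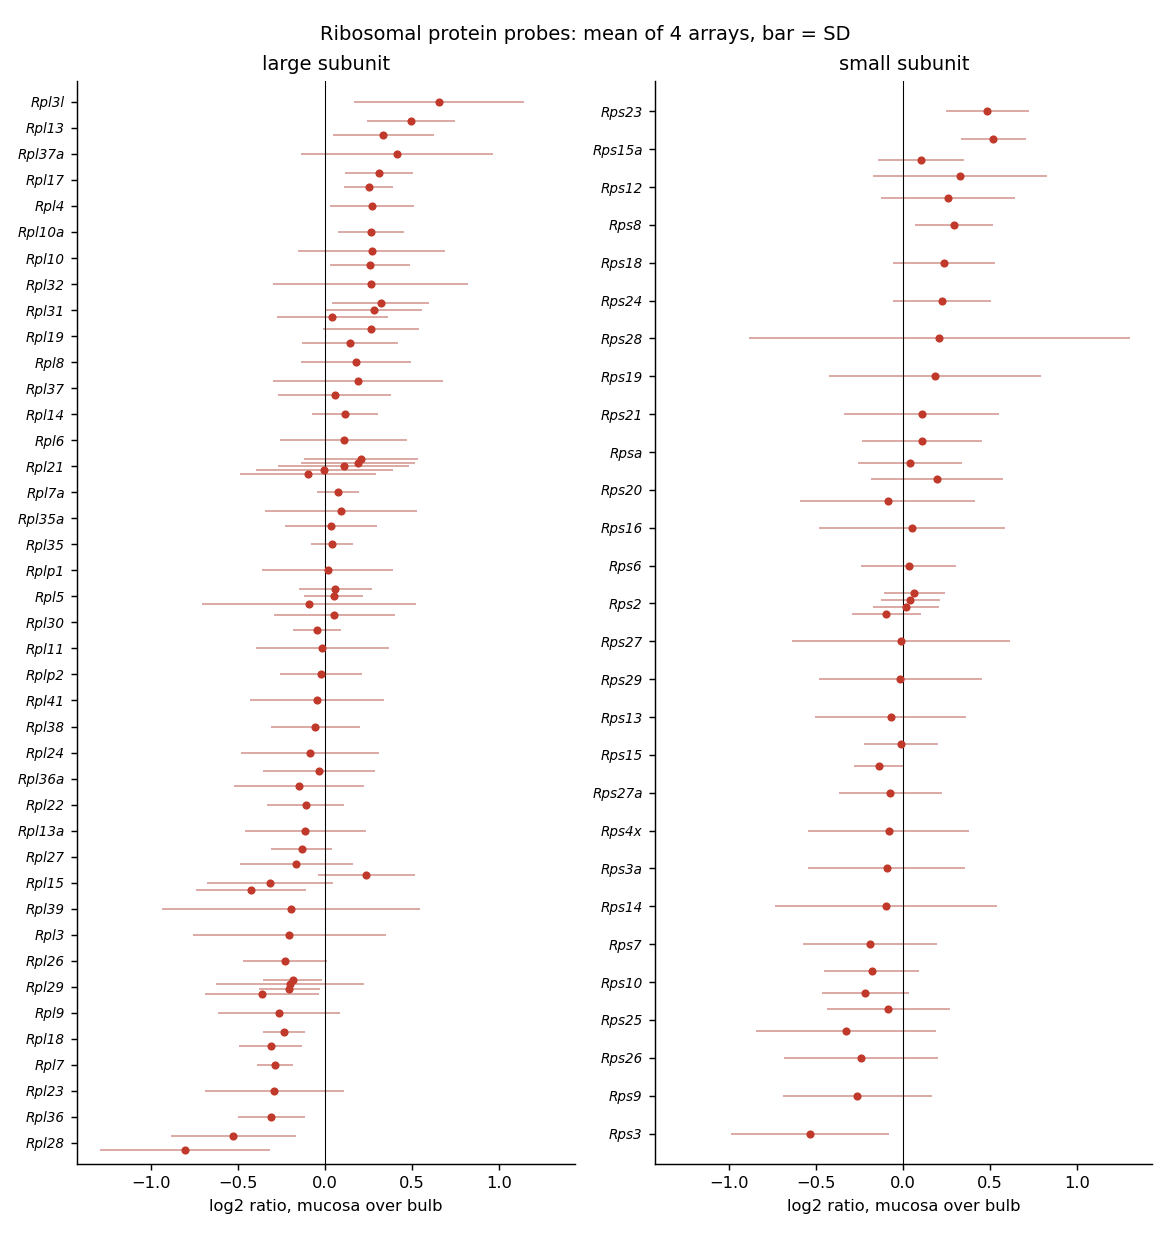
Mean log2 ratio of mucosa over bulb over 4 arrays (dot) with its SD (bar) for the ribosomal protein probes reported here, with genes ordered by their mean within the large subunit (left) and the small subunit (right). Most bars cross 0, with Rpl3l highest at 0.66 and the dim Rpl28 probe lowest at -0.80.

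The stalk and binding-site proteins lay close to 0 with loess. With median centring instead, the means were 0.32 for Rplp1, 0.39 for Rplp2, and 0.48 and 0.41 for the Rpsa probes A_44_P149036 and A_44_P117107. The values that follow are those with loess. Rplp1 had a mean ratio of 0.015 ± 0.38 (SD, n = 4), and Rplp2, its partner in the stalk, had ratios of 0.26, -0.20, 0.09 and -0.23 with a mean of -0.022 ± 0.24. No probe carried the name Rplp0, and the stalk base protein P0 was present under its older name Arbp at -0.16 ± 0.23. Rpsa, a small-subunit protein also known as the laminin receptor precursor, had means of 0.044 ± 0.30 and 0.11 ± 0.34 at its pair of probes. The ratios of each of these probes spanned 0, and the intervals of Rplp1, from -0.54 to 0.57, and Rplp2, from -0.52 to 0.48, lay within 2-fold.

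Rpl5 and Rpl11 form a particle with a small ribosomal RNA and can bind Mdm2, the ligase that degrades p53. Rpl5 had 3 probes with means of -0.093 ± 0.61, 0.051 ± 0.17 and 0.059 ± 0.21 (SD, n = 4 each). At the probes A_44_P432139 and A_44_P605733 replicates 1 to 3 lay between 0.12 and 0.18, and replicate 4 was at -0.20 and -0.25. The probe A_44_P422103 was also lowest in replicate 4, at -0.95. Rpl11 had ratios of 0.31, 0.31, -0.43 and -0.25 and a mean of -0.015 ± 0.38, so its arrays fell to both sides of 0.

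Among subunits tied to signalling and disease, Rps6, the target of the S6 kinases, had ratios of 0.16, 0.02, 0.29 and -0.34 and a mean of 0.034 ± 0.27 (SD, n = 4). Rps14, whose loss of a copy contributes to a form of myelodysplasia, had ratios of 0.58, 0.30, -0.64 and -0.64 and a mean of -0.098 ± 0.64. Rps19, mutated in Diamond-Blackfan anaemia, had ratios of 0.46, 0.36, -0.72 and 0.63 and a mean of 0.18 ± 0.61. Rps6 had the narrowest spread of these, and the arrays of each gene fell to both sides of 0.

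Of the genes used as references, Rpl13a had ratios of 0.15, -0.15, 0.14 and -0.59 and a mean of -0.11 ± 0.35 (SD, n = 4). Rpl32 had ratios of 0.81, 0.48, 0.26 and -0.51 and a mean of 0.26 ± 0.56. Rps18 had ratios of 0.35, 0.58, 0.11 and -0.09 and a mean of 0.24 ± 0.29. In all of these replicate 4 was the lowest, and the 95% intervals ran from -0.66 to 0.43 for Rpl13a, from -0.39 to 0.92 for Rpl32 and from -0.29 to 0.76 for Rps18.

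Of the listed paralogs other than Rpl3l, Rpl10l, Rpl22l1, Rpl39l, Rps27l and Rpl7l1 have no probe of that name among the 41012. Rpl10, needed for the last step of large-subunit maturation, was at 0.26 ± 0.23 and 0.27 ± 0.42 at its pair of probes. Rpl22, an RNA-binding large-subunit protein, was at -0.11 ± 0.22. Rpl39, which lines the exit tunnel, had ratios of 0.65, 0.21, -0.88 and -0.76 and a mean of -0.19 ± 0.74. Rps27, a small-subunit protein with a zinc-binding site, was at -0.0095 ± 0.63. Rpl7 was at -0.29 ± 0.10, below 0 on every array from -0.43 to -0.19 with loess, while its mean was 0.21 with median centring. The spread over arrays of Rpl7 was narrow and that of Rpl39 wide, although neither passed the test.

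The pair of probes that the array names Rpl36a was at -0.15 ± 0.37 and -0.034 ± 0.32, and the accession of both now belongs to the paralog Rpl36al1 in RefSeq. Likewise, the accession of the Rpl37 probe A_43_P12513 now belongs to Rpl37l1. Rps27a, made as a fusion with ubiquitin, was at -0.073 ± 0.30, and Rps4x, the X-linked form of S4, at -0.080 ± 0.46. Rps28, chosen after its values were seen, had the widest spread over arrays of any ribosomal protein probe, with ratios of 1.54, 0.19, 0.26 and -1.14 and an SD of 1.09.

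Different probes of a gene mostly gave similar ratios. Of 26 genes with more than 1 probe, the gap between the highest and the lowest mean had a median of 0.13, and 25 of 26 gaps were under 0.5. The probes had means of opposite sign in 6 genes. The widest gap was that of Rpl15, at 0.66 ± 0.52 (SD over 4 arrays), and among the next widest were Rps15a at 0.41, Rpl21 at 0.30 and Rps20 at 0.28.

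In Rpl15 the gap separated the bright pair shown above from a dim probe, A_42_P732189, which starts at base 1863 of the transcript at chr15:9085404-9085463. Its median signal was 219 in mucosa cells and 86.2 in bulb cells, and its ratios were -0.02, 0.03, 0.56 and 0.39, with a mean of 0.24 ± 0.28 (SD, n = 4), which was 0.48 with the processed signals and 0.10 with median centring. The bright probe A_44_P365421, at base 223, had a mean of -0.42 ± 0.32. In replicate 1 the probes differed by 0.011, and in replicate 4 by 1.19.

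Rpl21, a large-subunit protein, had 5 probes that the array places in a stretch of chromosome X, while RefSeq has the gene on chromosome 12. Their means were -0.097, -0.0037, 0.11, 0.19 and 0.21, and the gap between the extremes was 0.23 to 0.39 on every array. The order of the lowest and the highest probe was therefore the same on all 4 arrays. Rps20, at the small subunit's head, had means of -0.088 ± 0.50 and 0.20 ± 0.38, and the gap was 0.12 to 0.47 on every array.

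Copies and relatives of the ribosomal proteins that the array names otherwise also had median ratios near 0. Of 349 probes described as similar to a ribosomal protein, a list added after the data were seen, 333 were tested and 0 were higher or lower (limma, 16 at an unadjusted p under 0.05). Among all tested probes 6.54% passed and 23.8% had an unadjusted p under 0.05 (limma). The median ratio of the 333 was 0.057 with an SD over probes of 0.29, and single probes ran from -1.10 to 1.06. Past 1.5-fold lay 18 of them, beside 31.1% of all tested probes. Fau, which carries a small-subunit protein as a fusion, was at 0.038 ± 0.44 and -0.16 ± 0.23. Of the 4 probes for ribosomal proteins under other names, Fau and Arbp among them, 0 passed the test (limma, 0 at an unadjusted p under 0.05).

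The rest of the translation machinery was described by lists, to be read beside the 6.54% of all tested probes that passed. An unadjusted p under 0.05 was found for 23.8% of all tested probes (limma). Of 12 probes for elongation factors, 0 passed the test (limma, 2 at an unadjusted p under 0.05) and the median was 0.15. Eef1a1, which brings aminoacyl-tRNA to the ribosome, was at -0.23 ± 0.29, and Eef2, which moves the ribosome along, at -0.33 ± 0.44. Other elongation probes went the other way, with Eef1a2 at 0.69 ± 0.49 and Eef1g at 0.80 ± 0.15, 0.20 ± 0.17 and 0.29 ± 0.23. These Eef1a2 and Eef1g probes were above 0 on every array. Of 39 probes for initiation factors, 0 passed (limma, 3 at an unadjusted p under 0.05), with a median of -0.18. Of 20 probes for ribosome biogenesis, 0 passed (limma, 3 at an unadjusted p under 0.05), with a median of -0.20. Npm1, a nucleolar chaperone of ribosome assembly, was between -0.27 and -0.14 at its 3 probes.

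Of 18 probes for other transcripts known or proposed to start with pyrimidines, 1 was lower and 0 were higher, beside 3.42% and 3.13% of all tested probes, and the median was -0.15. The lower 1 was Vim, the intermediate filament protein vimentin, with ratios of -1.04, -0.97, -0.98 and -0.76 and an adjusted p of 0.045 (limma, Benjamini-Hochberg adjustment). This call was lost with any of the replicates left out. Tpt1, a translationally controlled protein, was at 0.30 ± 0.41, 0.27 ± 0.44 and -0.096 ± 0.50, and Gnb2l1, the scaffold protein on the small subunit, at 0.099 ± 0.18.

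The mitochondrial ribosome is a separate particle with its own proteins. Of its 72 probes, 71 were tested, 2 were lower and 0 higher, with a median of -0.27 and an SD over probes of 0.60, and 25 lay past 1.5-fold. Of all tested probes 3.42% were lower and 31.1% lay past 1.5-fold, so these shares were near the background. Mrpl46 was at -1.12 ± 0.11 (SD, n = 4) with an adjusted p of 0.0265, and Mrps18a at -1.49 ± 0.69 with an adjusted p of 0.0421 (limma, Benjamini-Hochberg adjustment). The count fell to between 0 and 1 with a replicate left out. The mitochondrial probes were less bright than the cytosolic ones, with a median percentile of 59.3 in mucosa and 70.6 in bulb channels.

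Of 18 probes for the control of ribosomal protein synthesis, 1 was lower and 0 higher, beside 3.42% lower and 3.13% higher of all tested probes, with a median of -0.19. This was Rps6ka2, a kinase of the RSK family downstream of ERK, with ratios of -2.71, -3.29, -1.68 and -3.01, a mean of -2.67 ± 0.71 (SD, n = 4) and an adjusted p of 0.00766 (limma, Benjamini-Hochberg adjustment). Without replicate 1 the list had 0 lower. Mdm2 was at 1.33 ± 0.64 and 1.40 ± 0.84 at its pair of probes, with adjusted p of 0.0502 and 0.0697 (limma, Benjamini-Hochberg adjustment), and was above 0 on every array. Frap1, the older name of the kinase mTOR, was at -0.21 ± 0.75. Of 19 probes for proliferation, 0 passed (limma, 2 at an unadjusted p under 0.05), with a median of -0.11.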

How the data were processed

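The deposited scanner files hold linear intensity values per spot without normalization and, per the file headers, a log10 ratio of Cy5 over Cy3 made by Agilent Feature Extraction 10.5.1.1, where the submitters' processing notes give 9.1. The deposited value table holds the same log10 ratios. Background was corrected by normexp (offset 50) from the mean spot and the median local intensity, and ratios were normalized by loess within each array, with control and outlier spots at weight 0. Signals quoted are mean spot intensities before background correction. Spots of a probe were averaged. Outlier spots were left out of the ratios and of the signals of single probes. They were kept in the channel medians, percentiles and summed marker signals.

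Probes entered the test when either channel had 3 or more arrays with 0.5 or more of the probe's spots well above background, which left 36749 of 41012. The mean log2 ratio of each probe was tested against 0 with lmFit and eBayes in limma 3.58.1 (R 4.3.3), with 6.36 degrees of freedom after moderation, Benjamini-Hochberg adjustment over all tested probes and a threshold of 0.05. With 4 pairs an exact sign test cannot go below 0.125. The precision is limited by the number of arrays. The ratio within an array holds the pairing.

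The members and lists were chosen with earlier results of these data known. Named genes were the 3 of largest absolute ratio in each direction, since 0 passed, the 5 with the widest gap between probes, and 27 listed genes, of which 21 had a probe. Some of these genes are not reported here. Outside the members the rule took up to 3 called genes per list, and others named from those lists were chosen after their values were seen. Sequences came from the scanner files and, for promoters, the first entry of each gene in RefSeq's GRCr8 table. Alternatives concerned background correction, normalization, filters, probe choice, GC content, variance, test and pairing, and each replicate left out. Sequence searches used Python 3.11.15 with numpy 2.4.6 and pandas 2.3.3, and figures matplotlib 3.10.9.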

Additional observations from a re-analysis of the deposited data

Results flagged for a closer look

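Among 40 sets of 4 arrays (39 named probes and the ribosomal protein median), 3 had an array far from the others by Dixon's criterion, which chance meets in about 1 in 20 groups. At the Rpl5 probe A_44_P432139, replicate 4 was at a log2 ratio of -0.20, with the others between 0.12 and 0.15. At the Rpl5 probe A_44_P605733, replicate 4 was at -0.25, with the others between 0.14 and 0.18. At the Rps3 probe A_44_P480208, replicate 3 was at -1.21, with the others between -0.35 and -0.28.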

How the results depend on the processing

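The count of ribosomal protein probes that passed was 0 under all 22 alternatives, and the smallest adjusted p of a ribosomal protein probe ranged from 0.0604 with median centring to 1 for limma's treat against 1.5-fold. These 22 are not independent. The processed signals, the deposited ratios and the deposited value table gave the same counts over all probes. Normalization of average intensities between arrays, and leaving out saturated probes, repeated the counts of the main fit. Their median was 0.32 with median centring and between -0.11 and 0.075 with a replicate left out. Of 824 values of named probes under an alternative, 775 kept their direction and 49 changed it, and 0 passed. Most named probes with a negative mean turned positive with median centring. Examples were Rpl7 (-0.29 to 0.21), Rpl13a (-0.11 to 0.19) and Rpl11 (-0.015 to 0.47). The Rpl28 probe A_44_P778019, Rps3 and the Rpl15 probe A_44_P365421 were among those that stayed negative. Over all probes, 1150 were higher and 1255 lower; these became 652 and 390 with a trended robust variance, 368 and 321 with treat, 315 to 610 and 288 to 620 with a replicate left out, and 1840 higher with unpaired channels (no replicate block), while 802 were lower by the processed signals and the deposited ratios. The lower call among other pyrimidine-start transcripts became 0 with no background subtraction, an offset of 16, median centring, the processed and deposited values, the trended variance, treat and each replicate left out. The 2 lower mitochondrial calls became 1 without the filter and with unpaired channels, 0 to 1 with a replicate left out, and 0 with median centring, the processed and deposited values, the trended variance and treat. The control list had 2 higher with median centring and with unpaired channels, 1 with scale normalization and with the strict filter, and 0 to 2 lower with a replicate left out. Proliferation had 1 lower with an offset of 16 and with median centring. Elongation had 1 higher with median centring and unpaired channels, biogenesis 1 higher with those and with scale normalization, and initiation 1 lower with unpaired channels. The cause of these changes was not tested. No paired analysis beyond this was possible because each ratio already compares the channels of a pair. The 4 arrays, a fixed dye orientation and amplified cDNA limit these values, and probes near background, such as the dim Rpl28 probe, are less certain than the bright majority.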
